A study of Mus musculus with 7 samples.

Results

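Fos binding was mapped by chromatin immunoprecipitation and sequencing (ChIP-seq) in mouse hippocampus, and the regions described here are those called after kainic acid inside genes of 200 kb or longer. Peaks of the 3 kainic acid lists were merged where they overlapped, and regions on chromosomes 1 to 19 with peaks in at least 2 lists were kept. A region belonged to the set when its summit, the median of the summits of its peaks, lay within a protein-coding gene of that length and more than 1 kb from either end of any protein-coding gene. By this rule 6819 of 26649 regions (25.6%) lay inside long genes, in addition to 8941 inside shorter genes, 8805 outside genes and 2084 at gene ends. All animals were WT C57BL/6J mice aged 2 months. The 3 saline libraries came from mice given saline alone. For the 3 kainic acid libraries, mice received kainic acid, an agonist of kainate-type glutamate receptors, intraperitoneally at 10 mg/kg as 2 injections 30 min apart. Mice with level 4 seizures were taken 1 h after the first injection. The labels also give 1 input library, for which no peak list was used here, and they do not say how many animals entered a library. The chromatin came from the whole hippocampus, so signal from fewer cells of a type and weaker signal per cell cannot be told apart. No expression was measured, so the tissue label could not be checked against marker transcripts.

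Fos is made within minutes to hours of strong neuronal firing. With a Jun partner it forms the transcription factor AP-1, which binds the short near-palindrome TGACTCA, which reads as TGAGTCA on the opposite strand, mostly at enhancers rather than at promoters. Many of the longest mammalian genes are expressed in neurons and encode synaptic scaffolds, receptors, ion channels and cell adhesion proteins, and their long introns hold many enhancers.

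Some regions coincided with a transcription start inside the long gene, from which a shorter form of the gene or another transcript is made, and there the sequence under the summit could be read for the AP-1 letters. RefSeq start windows of the assembly GRCm38.p6, each 300 bases from 250 before to 50 after an annotated start, held the summits of 33 of the 6529 regions on the 18 autosomes of the window table (0.505%). That table holds no start of some long genes on these autosomes, among them Gria1, Grin2b and Dlgap2. Their regions are among the 6529 but could be found only at starts of other genes inside them. Of these 33 windows, 21 belonged to a start of the long gene itself and 12 to another gene annotated inside it. The AP-1 letters were found in 13 of the 33 (39.4%, 95% Clopper-Pearson interval 22.9 to 57.9), which were 6 of the 21 starts of the long gene itself and 7 of the 12 others. The background, counted in the same way over 31396 start windows on the autosomes of that table, was 5.26%. Shown are those 6 windows, then the only window with 2 copies, at Gm31771 inside Pam, and for contrast the start of Camk1d, which had a peak in all 3 lists and no copy. Capitals mark the AP-1 letters, and every sequence runs 5′ to 3′ on the strand of its gene.
Dclk1: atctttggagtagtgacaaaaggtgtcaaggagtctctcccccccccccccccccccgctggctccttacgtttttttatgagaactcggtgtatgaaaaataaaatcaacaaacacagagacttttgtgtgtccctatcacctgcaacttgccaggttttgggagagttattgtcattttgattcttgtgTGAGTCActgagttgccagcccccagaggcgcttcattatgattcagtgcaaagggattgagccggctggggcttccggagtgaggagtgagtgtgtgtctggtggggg
Creb5: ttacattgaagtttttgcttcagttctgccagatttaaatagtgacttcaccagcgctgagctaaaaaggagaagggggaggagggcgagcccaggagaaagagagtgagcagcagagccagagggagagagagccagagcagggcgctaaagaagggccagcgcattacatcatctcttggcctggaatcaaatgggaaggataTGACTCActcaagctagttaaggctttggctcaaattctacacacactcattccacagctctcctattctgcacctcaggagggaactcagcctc
Palld: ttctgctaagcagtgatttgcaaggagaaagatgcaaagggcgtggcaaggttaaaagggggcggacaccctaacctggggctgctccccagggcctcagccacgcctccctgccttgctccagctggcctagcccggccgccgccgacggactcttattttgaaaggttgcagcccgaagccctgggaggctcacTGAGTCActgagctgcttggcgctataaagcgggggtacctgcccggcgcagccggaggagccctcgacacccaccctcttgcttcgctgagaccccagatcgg
Abr: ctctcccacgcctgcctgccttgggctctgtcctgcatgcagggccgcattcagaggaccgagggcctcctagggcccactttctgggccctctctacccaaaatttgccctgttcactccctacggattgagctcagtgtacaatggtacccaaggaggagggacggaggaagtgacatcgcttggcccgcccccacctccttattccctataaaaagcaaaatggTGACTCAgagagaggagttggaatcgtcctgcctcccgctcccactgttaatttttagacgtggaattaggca
Rcan2: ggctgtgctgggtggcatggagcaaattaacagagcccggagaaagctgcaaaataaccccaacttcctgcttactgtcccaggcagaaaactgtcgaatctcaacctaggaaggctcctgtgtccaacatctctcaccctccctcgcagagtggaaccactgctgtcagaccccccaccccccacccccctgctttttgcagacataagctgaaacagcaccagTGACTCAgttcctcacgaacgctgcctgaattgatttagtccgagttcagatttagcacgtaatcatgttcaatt
Ablim1: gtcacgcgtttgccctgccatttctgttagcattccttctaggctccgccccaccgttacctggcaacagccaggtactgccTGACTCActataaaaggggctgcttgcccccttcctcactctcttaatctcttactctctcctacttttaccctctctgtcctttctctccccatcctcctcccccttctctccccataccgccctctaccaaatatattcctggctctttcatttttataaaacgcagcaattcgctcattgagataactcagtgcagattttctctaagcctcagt
Gm31771: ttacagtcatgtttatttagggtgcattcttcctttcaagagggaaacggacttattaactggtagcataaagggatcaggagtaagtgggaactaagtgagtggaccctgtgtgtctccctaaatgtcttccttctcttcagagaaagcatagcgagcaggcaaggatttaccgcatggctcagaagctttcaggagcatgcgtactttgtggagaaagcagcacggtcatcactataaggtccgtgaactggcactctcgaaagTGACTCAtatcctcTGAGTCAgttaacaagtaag
Camk1d: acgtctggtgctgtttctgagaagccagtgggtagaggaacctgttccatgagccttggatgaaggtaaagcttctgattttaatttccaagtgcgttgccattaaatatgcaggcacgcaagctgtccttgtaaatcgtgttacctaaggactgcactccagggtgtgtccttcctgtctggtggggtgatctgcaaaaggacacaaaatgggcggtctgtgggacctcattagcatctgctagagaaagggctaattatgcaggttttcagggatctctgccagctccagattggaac

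Dclk1 encodes a microtubule-associated kinase that is also made in shorter forms from internal starts. Its window lay at chr3:55461478-55461777 on the plus strand, the summit was 27 bp from the centre of the motif, and the peak's fold over local background was 4.07, 9.54 and 4.61 in kainic acid replicates 1, 2 and 3. Creb5, a transcription factor of the CREB family, had its window at chr6:53573124-53573423 on the plus strand, with folds of 2.98, 7.31 and 4.29 and a summit 17 bp from the motif. These regions were called in every kainic acid library. Palld encodes the actin-associated protein palladin. Its window was chr8:61591090-61591389 on the minus strand, with the summit 6 bp from the motif and folds of 7.77 and 3.79 in replicates 2 and 3. The other starts of this kind also lacked a peak in replicate 1. Abr (chr11:76509370-76509669, minus strand), had folds of 6.31 and 4.19. Rcan2, a regulator of calcineurin (chr17:43952749-43953048, plus strand), had folds of 6.12 and 3.92. Ablim1, an actin-binding LIM protein (chr19:57274619-57274918, minus strand), had folds of 6.90 and 3.97. In Abr, Rcan2 and Ablim1 the motif lay 64.5, 124 and 122 bp from the summit.

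Pam encodes the enzyme that amidates neuropeptides. The window of Gm31771 inside it (chr1:97910853-97911152, plus strand) had folds of 3.38, 6.28 and 4.52, with the summit 13 bp from the nearer motif. Camk1d encodes a calcium/calmodulin-dependent kinase, and its window without the motif (chr2:5675997-5676296, minus strand) had folds of 5.84, 7.97 and 5.71. Presence in all 3 lists thus occurred with and without the letters. Of the 9 windows with a summit of a region in all 3 lists, 4 held the motif. Over the 13 windows with the motif, the summit lay 6 to 174 bp from it, with a median of 37 bp. The share with AP-1 letters was 5.47% in 1262 start windows inside long genes that held no summit. It was 55.1% (42.6 to 67.1) of 69 windows with a summit in shorter genes and 59.8% (48.3 to 70.4) of 82 windows with a summit outside genes. At gene ends it was 39.5% of 233 windows. These shares were not tested against each other. The related cyclic AMP response element, TGACGTCA, was in 0 of the 33 windows and in 1.83% of all start windows. Both motifs were searched on both strands as exact letters, and no copy can overlap another. A match is a description of the sequence and not a mapped site. Counting more widely, 116 of the 6529 regions on those 18 autosomes (1.78%) had their summit within 1 kb of a start inside a long gene. This is 48.0 regions per Mb, against 16.9 per Mb in the rest of the long-gene span. The rest includes long genes for which the window table holds no start, so both values cover listed starts only.

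The first comparison asks how densely long genes were occupied. Long genes offered 397 Mb of sequence clear of gene ends, 16.1% of the autosomal span, and held 17.2 regions per Mb. Shorter genes held 16.4 regions per Mb over 546 Mb, and the 1443 Mb outside genes held 6.10 per Mb. Outside genes means outside protein-coding genes, so noncoding genes are part of it. No span was corrected for assembly gaps or for sequence where reads cannot be placed, and no peak can be called there. Gene ends, which the rule set aside, were densest at 27.9 per Mb. Long genes therefore lay close to shorter genes and above the sequence outside genes. Their density fell to 8.03 per Mb without kainic acid replicate 2 and to 8.95 per Mb without replicate 3, since the number of regions depends on the longer lists.

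Each library was then counted alone, with all peaks of its list. Kainic acid replicates 1, 2 and 3 held 15009, 63197 and 29650 peaks, and their summits inside long genes numbered 4079, 15052 and 7679. This is 10.3, 37.9 and 19.3 peaks per Mb of long gene, and 27.4%, 24.0% and 26.1% of the autosomal summits. Saline replicates 1, 2 and 3 held 7, 3277 and 2 peaks, of which 2, 150 and 0 lay inside long genes. Every kainic acid list was above every saline list, and the groups did not overlap. On the scale of log10(peaks in long genes + 1) the kainic acid libraries had a mean of 3.89 ± 0.284 (SD, n = 3) and the saline libraries one of 0.885 ± 1.15 (SD, n = 3). The difference was 3.01 (p = 0.1 by an exact permutation test, two-sided), and no smaller p can be reached with 3 libraries against 3. Where the labels do not say that libraries came from separate animals, this p measures the spread between these libraries only. No read totals come with the lists, so depth is unknown, and absence from a list means only that no peak was called.

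Within a library, long genes can be set against shorter genes without scaling between lists. The ratio of peaks per Mb in long genes to that in shorter genes was 1.18, 0.963 and 1.05 in kainic acid replicates 1, 2 and 3. The mean log2 ratio was 0.09 ± 0.14 (SD, n = 3), smaller than its spread, and the exact sign-flip permutation test gave p = 0.5 (two-sided, smallest value 0.25). Against sequence outside genes, whose span was not corrected for assembly gaps, the ratio was 2.90, 2.79 and 2.94, a mean of 2.88 ± 0.0766 (SD, n = 3). All 3 libraries lay on the same side, and the exact sign-flip permutation test again gave its smallest value, p = 0.25. Saline replicate 2 differed in its pattern. It had 0.378 peaks per Mb of long gene and 1.62 per Mb of shorter gene, a ratio of 0.233, and only 4.60% of its autosomal summits lay inside long genes. This is below all 3 kainic acid libraries. Gene ends held 59.1% of its autosomal summits, against 6.26%, 10.4% and 7.69% in kainic acid replicates 1, 2 and 3. Saline replicate 2 is 1 library, and saline replicates 1 and 3 have too few peaks for a ratio. The difference between treatments in the ratio of long to shorter genes was therefore not tested.

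**Figure D1:**
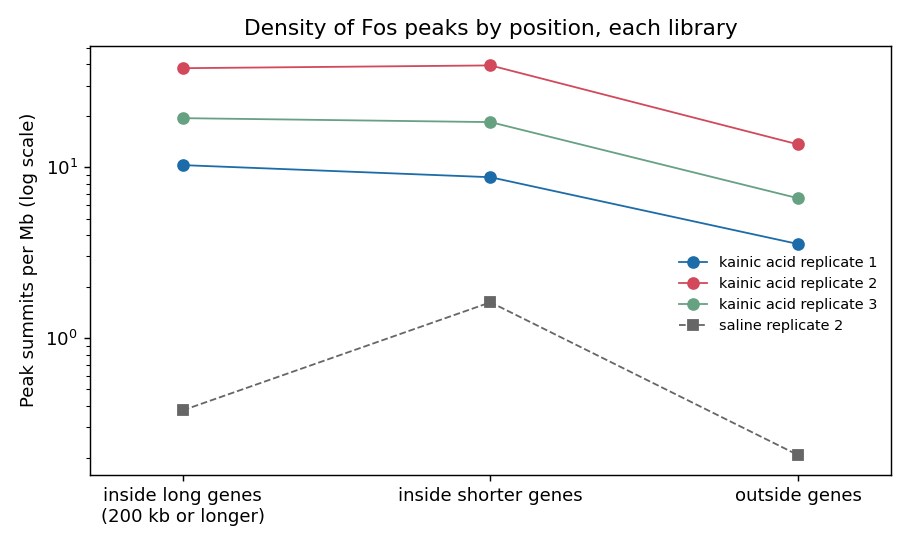
Peak summits per Mb (log axis) inside long genes, inside shorter genes and outside genes, with 1 line for each kainic acid library and for saline replicate 2; saline replicates 1 and 3, with 7 and 2 peaks, are not drawn. Kainic acid libraries run level between long and shorter genes (10.3 and 8.73, 37.9 and 39.3, 19.3 and 18.3 per Mb), while saline replicate 2 is lower in long genes (0.378) than in shorter genes (1.62).

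The regions of long genes were also compared with the others for how often they recurred and how strong they were. Of the 6819, 3104 (45.5%, 44.3 to 46.7) were in all 3 lists. The background over all 26649 regions was 44.5%, and the share was 42.5% in shorter genes and 47.1% outside genes. Most of those in exactly 2 lists were in replicates 2 and 3 (3186), with 443 in replicates 1 and 2 and 86 in replicates 1 and 3. This order follows the lengths of the lists. The median fold over local background, which is the authors' own value, was 4.45, 5.67 and 4.17 in kainic acid replicates 1, 2 and 3. Ranked within each list from 0 (lowest fold of a region) to 100, regions in long genes had a median percentile of 48.8, 46.3 and 49.4, a mean of 48.2 ± 1.64 (SD, n = 3). The mean was 49.0 ± 0.422 in shorter genes and 53.8 ± 0.215 outside genes. Regions in long genes were thus of middling strength and ranked under those outside genes in every library. The median width of a merged region was 696 bp.

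A small number of these regions also had a saline peak. It was 42 of 6819 (0.616%, 0.444 to 0.832), against 2.02% over all regions, 1.85% in shorter genes, 1.04% outside genes and 11.5% at gene ends. Saline replicates 1, 2 and 3 accounted for 2, 41 and 0 of them. Without saline replicate 2 the share was 0.0293%. Seen from saline replicate 2, 39 of its 150 summits in long genes (26.0%, 19.2 to 33.8) fell in one of the kainic acid regions. The 150 summits lay in 116 genes. Gse1 held 10 of them, Rbfox3, a neuronal splicing factor known as NeuN, held 6 and Zmiz1, a transcriptional coregulator, held 4, all named after their counts were seen.

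Among genes, coverage was wide and uneven. Of 945 long genes, 842 (89.1%) held at least 1 region, 481 held 5 or more, 230 held 10 or more and 66 held 20 or more. The median was 5 regions per gene and 12.4 per Mb (quartiles 4.94 and 25.6), and 364 genes (38.5%) lay above the pooled density of 17.2 per Mb. The 150 genes with most regions held 50% of all placements. A gene's density was ranked alike by the libraries: across genes, Spearman's rho of peaks per Mb was 0.813 between replicates 1 and 2, 0.869 between 1 and 3 and 0.915 between 2 and 3. These are descriptions over 945 genes of the same tissue, and genes are not independent replicates. At the length limit, Plcxd3 (200.1 kb) was just inside and Atp9b (199.9 kb) just outside. At the limit of distance, the nearest region kept lay 1002 bp from a gene end and the farthest of 90 left out in long genes lay 1000 bp from it.

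Longer genes tended to hold more regions, but not at a higher density. Across the 945 genes, Spearman's rho between length and number was 0.319, and between length and density it was −0.0590. The pooled density was 20.1 regions per Mb in the 412 genes of 200 to 300 kb, 19.4 in the 317 genes of 300 to 500 kb, 15.4 in the 161 genes of 500 to 1000 kb and 12.1 in the 55 genes over 1000 kb. All 55 of the longest class held a region. Genes over 1000 kb had 0.696, 0.526 and 0.627 times the peaks per Mb of genes of 200 to 300 kb in replicates 1, 2 and 3, a mean ratio of 0.616 ± 0.0855 (SD, n = 3). The longest genes were thus sparser in each library. Saline replicate 2 had 0.587 peaks per Mb in the shortest of these classes and 0.0958 in the longest.

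**Figure D2:**
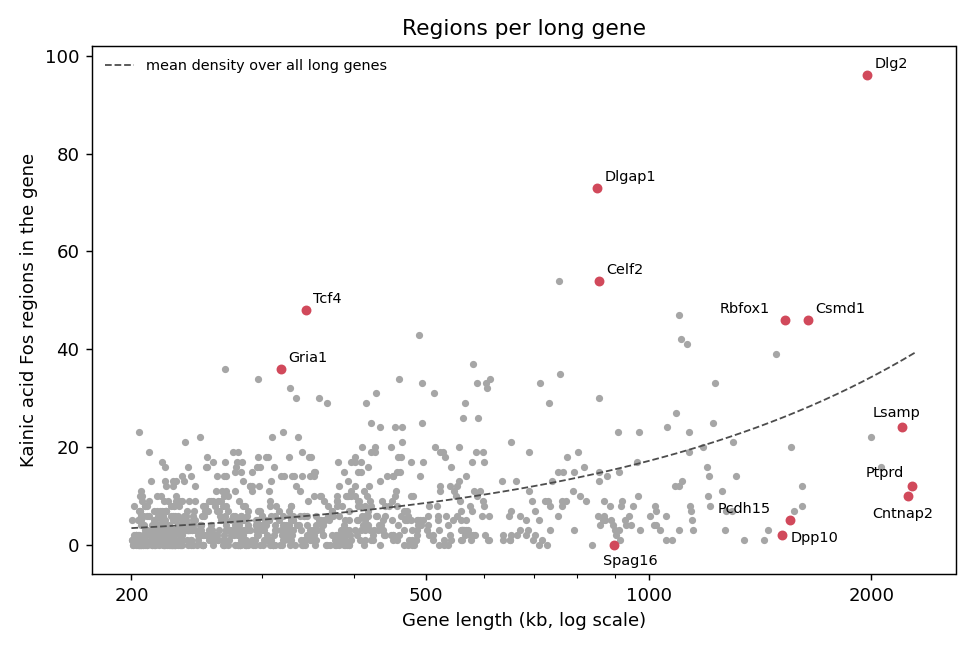
Number of kainic acid regions in each of the 945 long genes against gene length in kb (log axis), 1 point per gene; the dashed curve is the number that a gene would have at the pooled density of 17.2 regions per Mb. Dlg2 with 96 and Dlgap1 with 73 regions lie far above the curve, while Ptprd (12) and Cntnap2 (10), the longest genes, and Spag16 (0) lie under it.

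The 2 genes with most regions encode scaffolds of the postsynaptic density. Dlg2 encodes PSD-93 (chromosome 7, 90476188 to 92449246). It had 72, 167 and 122 peaks in kainic acid replicates 1, 2 and 3 and 0 in each saline replicate. Merged, these gave 96 regions, 54 of them in all 3 lists, or 48.7 per Mb. Without replicates 1, 2 and 3 in turn, Dlg2 had 89, 57 and 62 regions. Dlgap1 encodes the scaffold SAPAP1, which joins PSD-95 to Shank (chromosome 17, 69969073 to 70821413). It had 50, 135 and 86 peaks against 1 in saline replicate 2, and 73 regions at 85.8 per Mb. Leaving out replicates 2 and 3 gave 43 and 44. Its paralogue Dlgap2 had 30, 122 and 65 peaks and 54 regions, which became 25 and 28 without replicates 2 and 3. Anks1b, another postsynaptic protein, had 47 regions, and Magi2, a scaffold of synaptic and epithelial junctions, had 39.

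Regulators of RNA and transcription were also among the 12 genes with most regions. Celf2, a splicing regulator, had 37, 120 and 65 peaks and 54 regions, or 27 without replicate 2 and also 27 without replicate 3. Rbfox1, a neuronal splicing factor, had 46 regions. Tcf4 encodes a basic helix-loop-helix factor of neuronal development. With 22, 102 and 58 peaks against 1 in saline replicate 2, it had 48 regions in 345 kb, or 140 per Mb, the highest density of a long gene with all libraries merged. It had 18 regions without replicate 2 and also 18 without replicate 3. Auts2, a nuclear regulator of neuronal development, had 42 regions in 1106 kb. The remaining genes of the 12 with most regions were Csmd1 (46), a complement-control protein, Prkce (43), protein kinase C epsilon, and Dab1 (41), the adaptor of reelin signalling. Without replicate 2, Anks1b, Magi2, Rbfox1, Auts2, Csmd1, Prkce and Dab1 had 12 to 24 regions each, and without replicate 3 they had 15 to 24. In each of the 12 genes every kainic acid list held more peaks than every saline list, as in 78.9% of all long genes. The 12 were chosen by their number of kainic acid regions, so this order is not a result about them.

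By density, Tcf4 was followed by Ppp3ca. This gene encodes a catalytic subunit of the phosphatase calcineurin. It had 18, 72 and 40 peaks and 36 regions in 268 kb, or 135 per Mb. Dclk1 had 19, 68 and 38 peaks and 115 regions per Mb. Gria1, the AMPA receptor subunit GluA1, had 16, 71 and 44 peaks against 1 in saline replicate 2, or 114 regions per Mb. Cmip, an adaptor protein, reached 114 per Mb as well, with 9, 53 and 22 kainic acid peaks and 3 in saline replicate 2. Ntrk2 encodes TrkB, the receptor of brain-derived neurotrophic factor. It had 19, 87 and 32 peaks, no saline peak and 98.3 regions per Mb. Sik3 and Nedd4l, a kinase and a ubiquitin ligase, and Sgip1 and Slc24a2, an endocytic protein and a sodium/calcium exchanger, lay between 89.6 and 90.7 per Mb. The order among them depended on the libraries. In replicate 1 alone, Ppp3ca (67.7), Sik3 (66.9) and Dclk1 (64.5) had more peaks per Mb than Tcf4 (64.2). Tcf4 had 52.5 regions per Mb without replicate 2 and also without replicate 3, against 60.1 and 67.7 for Ppp3ca. Without replicate 2, these 10 genes had 7 (Sgip1) to 18 (Tcf4) regions each, and the range was also 7 to 18 without replicate 3.

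The longest genes were mostly sparse. Ptprd, a receptor phosphatase of synaptic adhesion and the longest at 2271 kb, had 7, 30 and 15 peaks and 12 regions, or 5.29 per Mb. Cntnap2, a neurexin-family adhesion protein of 2241 kb, had 6, 16 and 9 peaks and 10 regions (4.47 per Mb). Lsamp, Lrp1b and Macrod2 had 24, 16 and 22 regions, and Nrxn3, Fhit and Ctnna3 had 12, 8 and 7. Only Dlg2 and Csmd1 (28.1 per Mb) of the 10 longest genes exceeded the pooled density. Without replicates 2 and 3 in turn, Ptprd had 5 and 5 regions, Cntnap2 had 4 and 5, and Dlg2 still had 57 and 62. The other 7 genes had 2 (Ctnna3) to 24 (Csmd1) regions in both settings.

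**Figure D3:**
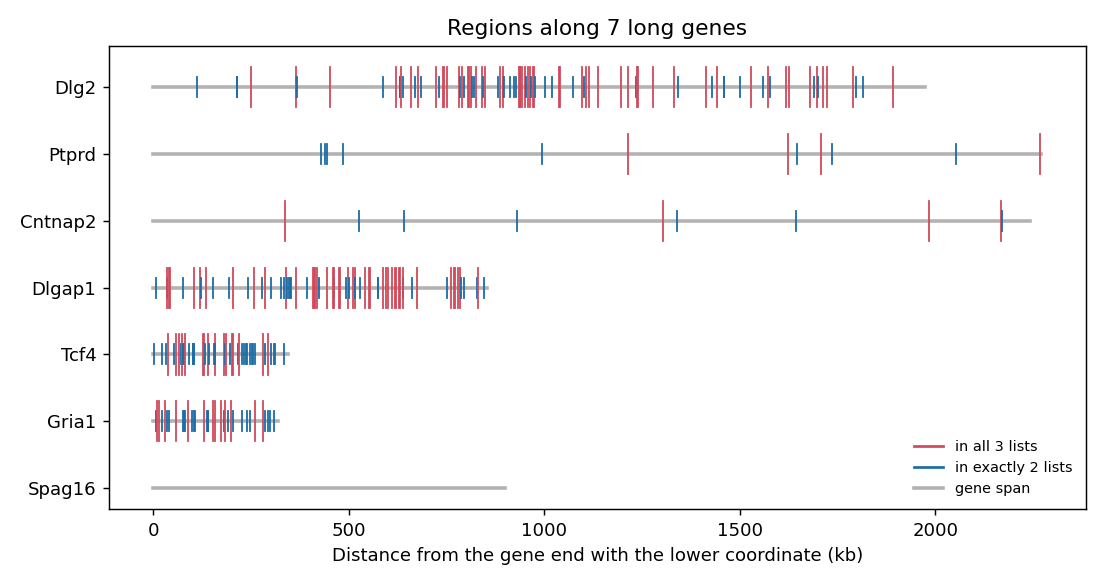
Summits of kainic acid regions along 7 long genes, by distance in kb from the gene end with the lower coordinate; long red ticks are regions in all 3 lists, short blue ticks regions in exactly 2, and grey bars the gene spans. Dlg2 and Dlgap1 are filled along most of their length, Ptprd and Cntnap2 hold 12 and 10 scattered regions, and Spag16 holds 0.

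A minority of long genes had no region. There were 103, and 45 of them had no peak in any kainic acid list. The longest was Spag16, a sperm flagellum protein (898 kb), with 0, 2 and 0 peaks, followed by Sugct, a mitochondrial enzyme (837 kb), with 0, 2 and 0. Malrd1, Skint5, Skint6 and Zfp993 had no peak in any list. Mgat4c, Iqcm and Cfap299 had 1 or 2 peaks in all, and Unc13c, a synaptic vesicle priming protein, had 3 peaks, all in replicate 2.

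Genes were then grouped by function or cell type and read against all long genes, of which 89.1% held a region, 38.5% exceeded the pooled density and the median was 12.4 regions per Mb. Lists overlap in part, and a long gene can be counted in more than 1. Numbers of regions leaned on the longer lists throughout: of the 48 named genes that held a region, the number fell by more than 1.5 times in 47 without replicate 2 and in 46 without replicate 3. Among glutamate receptors, all 15 long genes held a region and 6 exceeded the pooled density, with a median of 12.6 per Mb. Gria1 had 36 regions and Grin2b, the NMDA receptor subunit GluN2B, had 34 (20, 64 and 46 peaks, 1 in saline replicate 2). Without replicates 2 and 3, Grin2b had 13 and 16 regions and Gria1 had 13 and 15. All 5 long GABA receptor genes held a region, 3 exceeded the pooled density and the median was 28.6 per Mb. The GABA-B receptor gene Gabbr2 had 7, 46 and 16 peaks, 2 in saline replicate 2, and 14 regions.

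Ion channels were read in the same way. All 15 long calcium and sodium channel genes held a region and 10 exceeded the pooled density, with a median of 19.7 per Mb. Cacna1c, the L-type channel Cav1.2, had 17, 84 and 37 peaks and 34 regions. Cacna1e, an R-type channel, had 12, 55 and 27 peaks and 25 regions. Of 20 potassium channel genes, 18 held a region and 9 exceeded the pooled density (median 16.8 per Mb). Kcnma1, the BK channel, had 33 regions and Dpp6, an auxiliary subunit of Kv4 channels, had 23. Kcnh8 and Kcnh5 had none.

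Signalling genes and activity-regulated genes were described next. Of 38 long genes of cyclic nucleotide and kinase signalling, 37 held a region and 21 exceeded the pooled density (median 19.3 per Mb). The list is broad and not limited to enzymes. It includes 4 guanylate kinase-like scaffold genes, Dlg1, Dlg2, Magi1 and Magi2, and also the ligand genes Nrg1 and Nrg3 and the regulators Rgs6 and Rgs7. Without the 4 scaffold genes alone, 33 of 34 genes held a region, 18 exceeded the pooled density and the median was 17.9 per Mb. Dlg2 (96) and Prkce (43) had most regions, and Camkmt, a calmodulin methyltransferase, had 0 regions with 0, 6 and 0 peaks. Only 9 of the 51 listed activity-regulated genes are this long. All 9 held a region, 6 exceeded the pooled density and the median was 23.6 per Mb. Ntrk2 had 32 regions, and Bach2, a transcription factor that itself belongs to the basic leucine zipper class, had 18 (8, 39 and 22 peaks). Without replicate 2 these became 14 and 8. All 43 long genes of the transcription factor list held a region, 22 exceeded the pooled density and the median was 18.0 per Mb. This list also includes genes of coregulators, among them Ppargc1a, Maml2 and Maml3, and the nuclear regulator Auts2.

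Adhesion and guidance genes had medians close to that of all long genes. Of 52 synaptic adhesion genes, 50 held a region and 18 exceeded the pooled density, with a median of 12.2 per Mb in genes of median length 833 kb. Csmd1 had 46 regions and the teneurin Tenm2 had 33, whereas Cntn6 and Cntnap4 had 0 regions, with 1 peak each in replicate 3. Of 25 axon guidance genes, 24 held a region and 9 exceeded the pooled density (median 12.2 per Mb). Dab1 had 41 regions, Slit3, a ligand of Robo receptors, had 33, and Sema3d had no peak in any list.

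Lists of other cell types held regions as well. Of 13 long genes of the oligodendrocyte lineage, all held a region and 6 exceeded the pooled density (median 15.3 per Mb). Slc24a2 had 22 and Dock10, a guanine nucleotide exchange factor, had 17. Both are also expressed in neurons. Of 11 astrocyte genes, 7 held a region and 4 exceeded the pooled density (median 9.34 per Mb). Trpm3 had 15 regions and Msi2 had 9, and Luzp2 and Bmpr1b had 0, each with 1 peak in replicate 2. Of 8 microglia genes, 7 held a region and 1 exceeded the pooled density (median 11.4 per Mb). Hdac9, which is also in the list of activity-regulated genes, had 9 regions and Elmo1 had 8, and Dock8 had 0. Of 5 endothelial and mural genes, all held a region and 1 exceeded the pooled density (median 8.99 per Mb), which was Rapgef4 with 15, a gene also expressed in neurons. Among 33 genes known mainly from muscle, kidney, skeleton and other tissues, 25 held a region and 6 exceeded the pooled density, with the lowest median of the lists at 5.37 per Mb. Sorbs2 (23) and Col25a1 (12) led this list, and both are known from the brain too. Cdh23 and Myo3a had none.

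List medians were also taken in each library, and the order of the lists was not the same in all 3. Median peaks per Mb of all long genes were 7.51, 28.1 and 13.5 in kainic acid replicates 1, 2 and 3. In the GABA receptor list they were 14.3, 61.3 and 34.7, in the activity-regulated list 10.9, 49.8 and 27.2, and in the calcium and sodium channel list 11.9, 44.5 and 23.4. In the list of other tissues they were 2.95, 12.2 and 7.16. Of the 14 lists, 6 were above all long genes in each library (GABA receptors, activity-regulated genes, calcium and sodium channels, potassium channels, transcription factors, and cyclic nucleotide and kinase signalling). The lists of other tissues, astrocytes and endothelial and mural cells were below in each. The remaining 5 changed sides between libraries: synaptic adhesion, for example, had 9.25, 24.6 and 13.9 peaks per Mb. These counts and medians are descriptions with no test, and the lists were chosen with earlier results of the same data known.

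**Figure D4:**
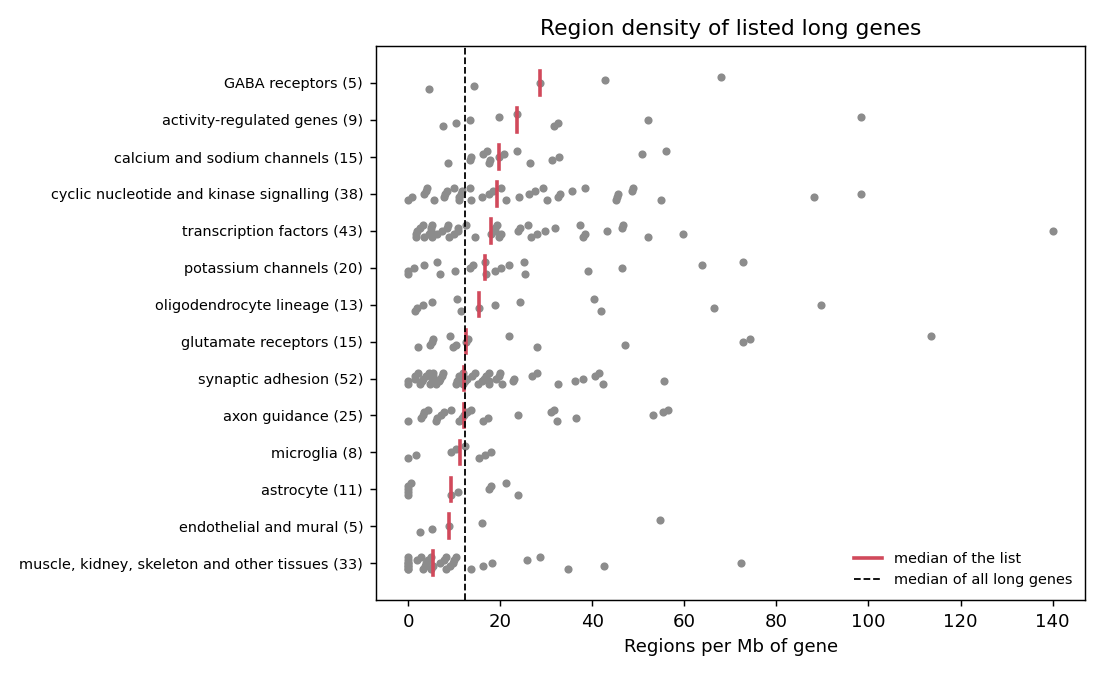
Regions per Mb of gene for the long genes of 14 lists (number of long genes in brackets), 1 point per gene; red bars are list medians and the dashed line is the median of all 945 long genes, 12.4 per Mb. Medians run from 5.37 per Mb for genes of other tissues to 28.6 per Mb for GABA receptors, and every list has genes on both sides of the dashed line.

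Along the gene, regions were spread from end to end. A strand was known for 707 of the 945 genes. Split into 10 equal parts from the 5′ end, these genes held between 14.1 regions per Mb (in the last part) and 19.6 (in the eighth), with 17.8 in the first. The last part was the lowest in each kainic acid library, with 7.90, 32.9 and 15.5 peaks per Mb in replicates 1, 2 and 3. By distance, the 9 kb next to the excluded start were denser than the rest. From 1 to 10 kb from the 5′ end there were 27.5 regions per Mb, against 17.2 from 10 to 50 kb. The ratio of peak densities in these 2 bins was 1.62, 2.04 and 1.71 in replicates 1, 2 and 3, a mean of 1.79 ± 0.225 (SD, n = 3). At the 3′ end the same ratio was 0.951, 0.821 and 0.890, a mean of 0.887 ± 0.0652 (SD, n = 3), and the density from 1 to 10 kb was 13.6 regions per Mb. The 2 ends thus differed in the same direction in all 3 libraries. Most of the regions lay far from either end all the same: their median distance from the nearest gene end was 97.4 kb, and beyond 500 kb from the 5′ end the density was still 14.5 per Mb.

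**Figure D5:**
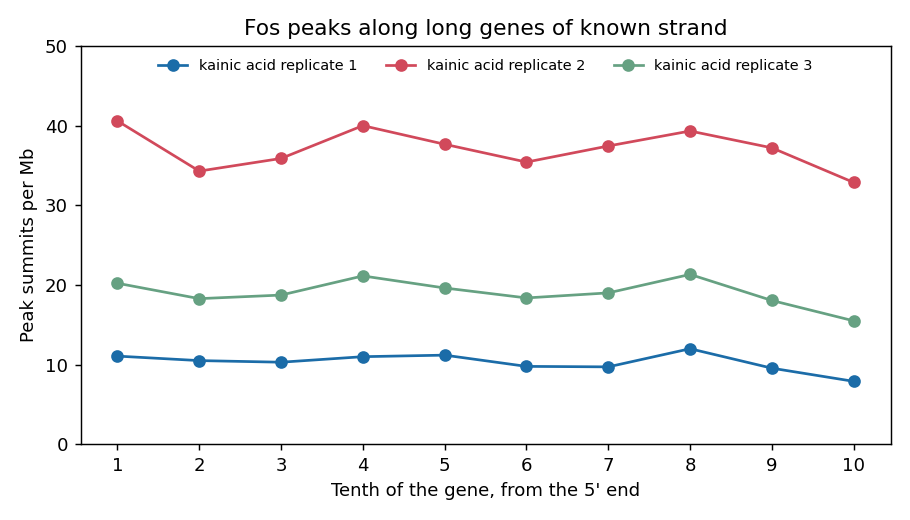
Peak summits per Mb in each of 10 equal parts of the 707 long genes of known strand, counted from the 5′ end, with 1 line per kainic acid library. Each line stays within a narrow band, and the last part is lowest in all 3 libraries (7.90, 32.9 and 15.5 per Mb in replicates 1, 2 and 3).

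Regions also occurred in close runs. Of 6036 neighbouring pairs within a gene, the median distance between summits was 17.5 kb, and 1280 pairs (21.2%) lay within 5 kb, while the largest gap was 958 kb. Spacing was not measured for regions in shorter genes or outside genes, so these values do not set long genes apart. The densest stretch of 100 kb was in Ntrk2, with 26 regions whose summits ran from 58824054 to 58923742 on chromosome 13. Dlg2 had 20 regions between 91356818 and 91453300 on chromosome 7, and Dlgap2, Prkce and Tcf4 had 19 each in 100 kb. In Ntrk2 this stretch held 26 of its 32 regions, whereas in Dlg2 the densest stretch held 20 of 96.

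The strongest members lay in genes that were not always the densest. By mean percentile of fold in the 3 lists, the leading region was in Nell2, a secreted neuronal glycoprotein (chromosome 15, 95275949 to 95277575), with folds of 54.5, 82.6 and 54.4 in replicates 1, 2 and 3. It had peaks in saline replicates 1 and 2. The region in Atxn1, the ataxin-1 gene (chromosome 13, 45623232 to 45624723), had folds of 56.3, 82.6 and 54.2 and a peak in saline replicate 1. No other region in long genes had a peak in saline replicate 1, and none had one in saline replicate 3. The next regions were weaker and had no saline peak. They lay in Glis3, a zinc finger factor (chromosome 19, 28436021 to 28437140, folds 17.5, 37.6 and 17.1), and in Slc9a9, an endosomal sodium/proton exchanger (chromosome 9, 95168057 to 95169524, folds 14.9, 37.5 and 18.6). Dlgap1, which was second by number, also held the fifth region by strength (chromosome 17, 70753096 to 70754414, folds 17.4, 30.4 and 16.0). Carmil1, Btbd9, Magi2, Epha5, Oca2 and Lingo2 held further regions among the 12 best. A different region of Nell2 (chromosome 15, 95278103 to 95279173), next to its leading one, was also among them, with folds of 21.1, 22.9 and 12.4. The gene table gives no exons, so exonic and intronic positions cannot be told apart here.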

How the data were processed

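Fos ChIP-seq was run on hippocampus of saline and kainic acid mice, and 6 peak lists were used, 1 per library and none pooled. Trim Galore 0.6.4, Bowtie2 2.3.4.3, MACS2 and deepTools 3.5.0 and the build mm10 are named in the submitters' processing notes. The calling cutoff and the control library are not given in the sources used here. Fold, as deposited, is the linear ratio between a peak and its local background. The deposited −log10 p and −log10 q belong to 1 library each, and the deposited score is 10 times the −log10 q. Summit offsets are in bases, as deposited. No value is scaled between libraries, so folds were only ranked or described within a list.

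Peaks sharing at least 1 bp were merged, and genes came from a RefSeq table of GRCm38.p6. Densities used the same 1 kb exclusion in numerator and denominator. Strand and start windows came from a RefSeq promoter table. Intervals of shares are 95% Clopper-Pearson intervals and cover counting error alone. Depth is unknown, since no read totals come with the lists. Libraries were compared with exact permutation tests, and regions and genes were described without tests. Merging was tested on simulated lists and returned 1304 of 1304 regions. Python 3.11.15, numpy 2.4.6, pandas 2.3.3 and scipy 1.17.1 were used.

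Genes named are the 12 with most regions, the 10 densest with at least 5 regions, the 10 longest, the 10 longest without a region, and up to 4 of each list (the 2 with most regions and the 2 longest without). Regions named are the 12 best by mean fold percentile in all 3 lists and those with a peak in saline replicates 1 or 3. Start windows and other genes were chosen for naming with their values in view. The regions and the gene lists were chosen with earlier results of these data known. Alternatives covered the q threshold, the lists required, the length limit, the exclusion around gene ends and each library left out. Some listed genes are not reported here.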

Additional observations from a re-analysis of the deposited data

Results flagged for a closer look

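The X chromosome lies outside the regions counted above, which were limited to chromosomes 1 to 19. Its 45 long genes, with 19.9 Mb clear of gene ends, held 36 regions in at least 2 kainic acid lists, 16 of them in all 3. This is 1.81 regions per Mb, against 17.2 per Mb in long genes of chromosomes 1 to 19, where the chromosomes ranged from 12.4 (chromosome 1) to 23.5 per Mb (chromosome 17). Kainic acid replicates 1, 2 and 3 had 23, 84 and 40 peaks there, and saline replicates had 0, 1 and 0. It is listed because it is a signal above the saline level in data that no comparison used. The lists as a whole held few peaks off chromosomes 1 to 19, inside long genes or not. Of the 15009, 63197 and 29650 peaks of kainic acid replicates 1, 2 and 3, 14890, 62620 and 29425 lay on those chromosomes. The difference from the other chromosomes was not tested.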

How the results depend on the processing

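Of 95 alternative values, 54 counted as the same, 40 moved and 1 reversed. The limit was 1.5-fold for number and density, and the 95% Clopper-Pearson interval of the main value for shares. For the median percentile it was the SD over libraries. The log2 ratio and the log10 difference were judged by sign alone, whatever their p. In each case the cause was not tested beyond what the setting itself removes. The number of regions in long genes was 4431 and 1907 at −log10 q thresholds of 5 and 10, 3104 in all 3 lists, 3222 with equal numbers of peaks, and 10292 and 2514 with genes from 100 and 500 kb. Their density was 11.2, 4.80, 7.82 and 8.11 per Mb in the first 4 of these settings. Their share of all regions was 24.8%, 23.8%, 26.2%, 24.5%, 38.6% and 9.43% in the same 6 settings, 24.8% with 5 kb kept clear of gene ends and 25.0% with the ends of all annotated genes. Long genes with a region were 83.5%, 67.8%, 77.1%, 78.1%, 80.5% and 96.8% in the same 6 settings. The share in all 3 lists was 38.1% at a −log10 q threshold of 10, 59.8% with equal numbers and 47.5% from 500 kb. Regions with a saline peak made up 0.158% and 0.105% at −log10 q thresholds of 5 and 10, 0.962% with equal numbers and 0.398% from 500 kb. The log2 ratio of long to shorter genes reversed from 0.09 to −0.26 with genes from 500 kb (exact sign-flip p = 0.25). It was 0.27 from 100 kb (exact sign-flip p = 0.25, the smallest possible). In all 3 lists it was 0.17, also with an exact sign-flip p = 0.25. There every library was counted over the same shared regions, so this p cannot measure agreement between libraries.

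With 1 library left out, the number of regions ran from 3190 to 6290, the density from 8.03 to 15.8 per Mb, the share of all regions from 25.3% to 26.5% and the long genes with a region from 77.6% to 87.8%. The share with a saline peak ran from 0.0293% to 0.721%, the lowest without saline replicate 2. The log10 difference between treatments ran from 2.56 to 3.65, and its test cannot pass 0.05 at this size. With the replicate block it was 3.01 (exact sign-flip p = 0.25). Deviations of same-numbered libraries correlated at 0.218, 0.205 and −0.0497, and those of kainic acid replicate 1 and saline replicate 3 at 0.225. Saline replicates 1 and 3 had only 2 and 0 peaks in long genes, so these correlations can neither show nor exclude pairing. The numbers were not taken as pairs, since the labels give no shared day or litter. For the 48 named genes with a region, 141 of 192 values moved, all 141 to fewer regions. The planned motif share at summits was not run, since it needs a genome sequence. A share in all 3 lists cannot be formed with a library left out. The log2 ratio uses each library's summits before merging, so it was not repeated with summits within 200 bp. List length limits all counts.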
